A study of Homo sapiens with 4 samples.

Results

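The genes described here make, take up, store and export cholesterol or sense its level. They are 33 of the 19577 gene names in the 4 count tables: 18 enzymes of cholesterol synthesis, 5 genes of the machinery around the sterol regulatory element binding proteins (SREBPs), 3 genes of sterol uptake and transport, 4 genes of fatty acid synthesis and 3 genes of sterol efflux or of the liver X receptor (LXR) response. They were taken by gene name from a list that was set with earlier results of these data known. All 33 had a row in at least 1 table. The cells were MCF10A cells, an untransformed human mammary epithelial line, here expressing a nuclear GFP marker, seeded as a circular patch on a fibronectin-coated glass-bottom dish and grown for 6 days in medium with equine serum, EGF, hydrocortisone, cholera toxin and insulin. Light-activated dyes then marked an outer and a middle zone. In the Low_resolution samples these were rings of 1000 to 1500 μm, and in the High_resolution samples they were the outermost 250 μm and the next 250 μm. Each experiment had 2 replicates, and each replicate was 1 plate of 384 wells with 1 sorted cell per well. Which zone a well came from was not analysed here. Every comparison below is between cells ordered by their own expression or between whole plates, and all groups share the same cell line, medium and substrate.

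Cells build cholesterol from acetyl-CoA through mevalonate, squalene and lanosterol. When sterols in the endoplasmic reticulum run low, SCAP carries the SREBPs to the Golgi, where they are cut into transcription factors that switch on the enzymes of this route. INSIG proteins hold SCAP back when sterols are plentiful. SREBF2 encodes the SREBP best known for cholesterol genes, and SREBF1 the one best known for fatty acid genes. Oxidized sterols act on LXRs, which raise the efflux pumps ABCA1 and ABCG1 and the ubiquitin ligase MYLIP. In mammary cells the same routes supply membrane and, during lactation, milk lipid.

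RefSeq promoter windows (GRCh38.p14, 250 bases before to 50 after a start) were at hand for 28 of the 33 genes. Stretches of 6 of them are shown because these genes recur in the results: 3 that ran with the enzymes as a group (HMGCS1, MSMO1 and INSIG1), SREBF2, the fatty acid desaturase SCD, and SREBF1, which ran apart. Each stretch ends before the first start listed by RefSeq or GENCODE. They lie at chr5:43313513-43313662 (HMGCS1, minus strand), chr4:165327473-165327622 (MSMO1, plus), chr7:155297628-155297775 (INSIG1, plus), chr22:41832929-41833078 (SREBF2, plus), chr10:100346983-100347123 (SCD, plus) and chr17:17837003-17837152 (SREBF1, minus). Capitals mark CCAAT, the box bound by NF-Y, and TCACNCNAC, a form of the sterol regulatory element, on either strand.
HMGCS1: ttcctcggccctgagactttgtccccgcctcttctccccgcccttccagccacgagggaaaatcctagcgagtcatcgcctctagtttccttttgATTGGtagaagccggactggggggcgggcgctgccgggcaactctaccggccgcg
MSMO1: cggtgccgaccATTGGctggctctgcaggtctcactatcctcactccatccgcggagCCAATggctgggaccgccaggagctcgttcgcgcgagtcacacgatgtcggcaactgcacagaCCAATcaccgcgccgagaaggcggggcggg
INSIG1: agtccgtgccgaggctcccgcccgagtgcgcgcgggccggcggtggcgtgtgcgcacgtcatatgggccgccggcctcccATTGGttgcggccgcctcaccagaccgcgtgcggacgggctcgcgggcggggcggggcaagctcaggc
SREBF2: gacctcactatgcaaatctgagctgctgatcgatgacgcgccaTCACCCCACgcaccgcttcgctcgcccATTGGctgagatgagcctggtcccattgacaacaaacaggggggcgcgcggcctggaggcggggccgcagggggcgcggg
SCD: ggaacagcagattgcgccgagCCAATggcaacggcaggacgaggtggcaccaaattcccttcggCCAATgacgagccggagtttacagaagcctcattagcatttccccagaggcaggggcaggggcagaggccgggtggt
SREBF1: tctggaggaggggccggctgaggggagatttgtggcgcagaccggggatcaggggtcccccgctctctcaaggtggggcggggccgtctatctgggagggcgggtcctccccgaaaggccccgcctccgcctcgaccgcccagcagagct

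CCAAT was present on either strand in a window of 21 of the 28 matched genes (75%) and of 39.7% of the 27305 genes in the promoter table. Of the 15 matched synthesis enzymes, 13 held it. Of the 5 genes of the SREBP machinery, only INSIG1 and SREBF2 did. TCACNCNAC was found in 3 of the 28 (FDPS, HSD17B7 and SREBF2), against 3.13% of all genes, and the narrower TCACNCCAC, which lies within it, in SREBF2 alone, against 1.39%. These are letter matches in a short window and not mapped binding sites.

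After the filter that the paper states (2000 to 9000 detected features and under 40% mitochondrial counts) 1146 of 1536 wells were kept as cells. The paper reports more analysed cells than this. Without the mitochondrial limit 1313 wells passed, which is still fewer than in the paper. The cells kept here are therefore not exactly the paper's set, and the reason was not tested. With spike-in RNA included, the plates held 11709600 to 14992300 counts before filtering. The median per kept cell ran from 30520 counts (low-resolution replicate 1) to 41248 counts (high-resolution replicate 2). The high-resolution plates were deeper than the low-resolution plates, and low-resolution replicate 1 came from another flow cell than the other 3 plates. All plates use the same 384 well barcodes, so a barcode does not identify a cell across plates. The mammary epithelial markers fixed for this work (10 of 10 found in every plate) summed to between 48.6 and 67.9 counts per 10000. Markers of fibroblasts (7 listed), immune cells (5), endothelium (4) and adipocytes or hepatocytes (5) summed to between 0.0359 and 0.594 per 10000, with LUM and ADIPOQ at 0 in all 4 plates.

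Detection varied widely among the members. FDFT1, which makes squalene, had a count in 99% to 99.7% of cells of a plate, at 4.53 and 4.82 counts per 10000 at low and 5.29 and 4.63 at high resolution. MSMO1 and CYP51A1, which remove the methyl groups of lanosterol, were also found in over 97% of cells of every plate. HSD17B7, a ketosteroid reductase of the late pathway, was found in 10.7% to 19.5% of cells, and it is the 1 enzyme that fell short of the 20% of cells in every plate asked for below. The efflux genes were scarce: ABCA1 was found in 1.03% to 6.64% of cells, ABCG1 in 4.12% to 13.7% and MYLIP in 16.8% to 32.5%. NPC1L1, an intestinal sterol importer, had 3 and 2 counts in the low-resolution plates, no row in high-resolution replicate 1 and 1 count in replicate 2, and it entered no test.

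**Figure D1:**
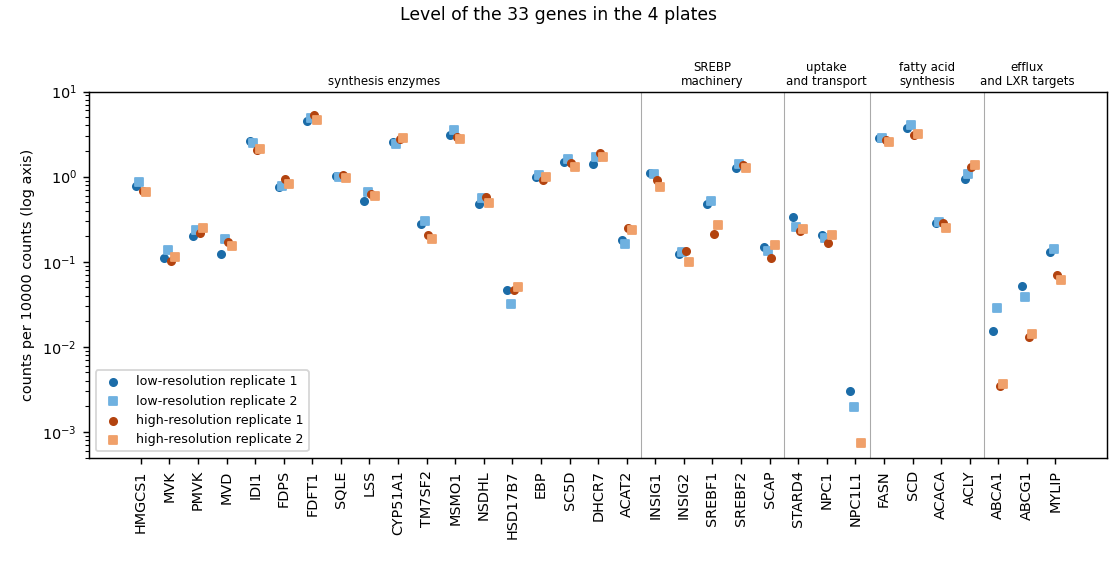
Counts per 10000 counts (log axis) of each of the 33 genes in each of the 4 plates, 1 point per plate, grouped by role; a plate without counts has no point. The 4 points of most genes lie close together, and SREBF1, MYLIP, ABCG1 and ABCA1 sit lower in both high-resolution plates than in both low-resolution plates.

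The first question was whether the enzymes rise and fall together from cell to cell. A synthesis score was set for each cell as the mean z-score of the 17 enzymes that every plate detected in 20% of its cells or more, and each enzyme was compared with the score of the other 16 by Spearman's rho across the cells of a plate. All rho values here are descriptions across cells of shared plates. The mean rho over the enzymes was 0.41 and 0.44 at low and 0.41 and 0.41 at high resolution (0.416 ± 0.018, SD, n = 4 plates). FDFT1 followed the rest most closely, with 0.67, 0.76, 0.72 and 0.72, and CYP51A1, DHCR7, IDI1, MSMO1, SQLE and HMGCS1 had means over the plates between 0.51 and 0.58. At the other end, PMVK, which phosphorylates phosphomevalonate, had 0.0395, -0.0174, 0.24 and 0.14, and TM7SF2, a sterol reductase, a mean of 0.20. These 2 were found in fewer cells than FDFT1, PMVK in 42.6% to 60.4% and TM7SF2 in 41.3% to 53.1% of a plate. HMGCS1, in 73.2% to 82.9% of cells, followed more closely than SC5D, in 90.8% to 96.6%. The part of detection in this order was not tested. Depth ran with the score as well: its rho with total counts per cell was 0.26, 0.088, 0.32 and 0.12. With every cell thinned to 10000 UMIs the mean rho over the enzymes fell to 0.264, 0.304, 0.231 and 0.205, and FDFT1 was still the highest at a mean of 0.51.

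Pairs of single genes showed the same order. The pairs of enzymes had a median rho of 0.199 (mean of the 4 plates), against 0.0199 for all pairs of the 8032 genes detected that widely. Those genes were not matched to the enzymes for level. FDFT1 with MSMO1 was the highest pair at 0.51, and FDFT1 with SCD reached 0.49. Pairs of an enzyme and a fatty acid gene had a median of 0.156, pairs with the SREBP machinery 0.0573 and pairs with STARD4 or NPC1 0.0389. After thinning, the enzyme pairs had a median of 0.0860 and all gene pairs 0.00192.

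**Figure D2:**
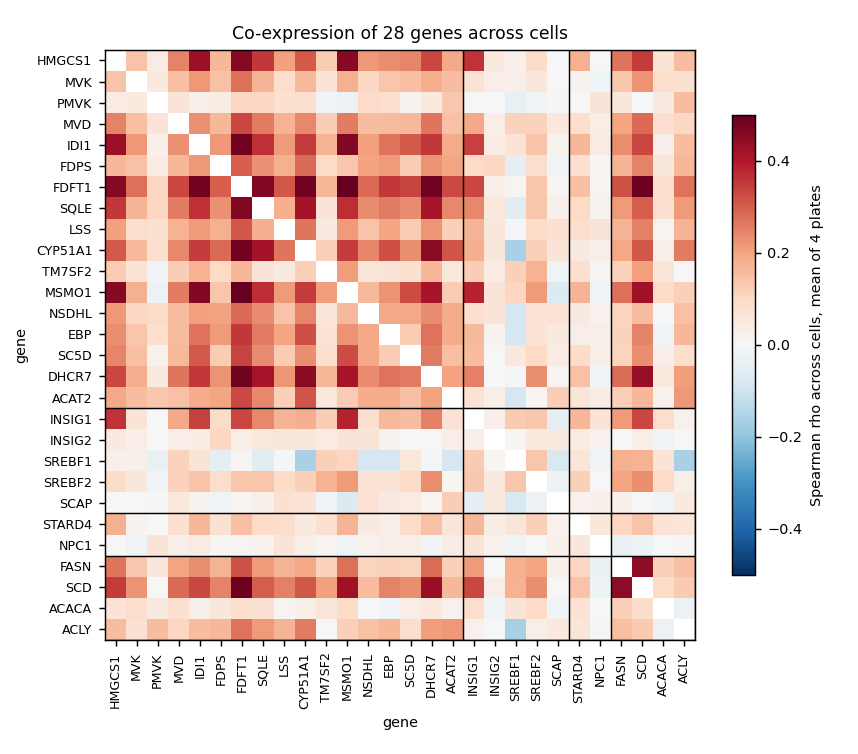
Spearman rho across cells for each pair of the 28 genes detected that widely, as the mean of the 4 plates, with black lines between the roles. FDFT1, MSMO1, IDI1, HMGCS1, CYP51A1, SQLE, DHCR7, SCD and INSIG1 form the reddest rows, while SREBF1, SCAP and NPC1 stay pale.

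A gene was counted as following the score when its rho was at least 0.2 in all 4 plates. Of the 8032 genes 29 did so (0.361%), and 18 of these were members: 14 of the 17 enzymes and, outside the score, SCD, INSIG1, FASN and ACLY. SCD, which desaturates stearoyl-CoA, had 0.57, 0.67, 0.39 and 0.55. INSIG1, itself an SREBP target and the brake on SCAP, had 0.41 and 0.55 at low and 0.28 and 0.29 at high resolution. FASN, the fatty acid synthase, had a mean of 0.35, and ACLY, which makes cytosolic acetyl-CoA, 0.30. Thinned cells left 11 genes above the limit, of which 8 were members. Of the 37 other pathway genes listed, 31 were found widely enough, and 3 followed the score: C14orf1 (the older name of ERG28, a scaffold of the C-4 demethylation complex) with a mean of 0.47, ACSS2 (a cytosolic acetyl-CoA synthetase) with 0.38 and TMEM97 (the sigma-2 receptor, a partner of NPC1) with 0.29.

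SREBF2 had a rho with the score of 0.28, 0.26, 0.20 and 0.11, and SREBF1 had 0.057, 0.11, -0.082 and -0.090, so the sign of SREBF1 differed between the low- and the high-resolution plates. SCAP had a mean of 0.0407 and INSIG2 0.0741. STARD4, a cytosolic sterol carrier, had a mean of 0.18, and NPC1, which moves sterol out of lysosomes, 0.0310. Among genes in none of the pathway lists, those with the highest mean rho were DBI (0.40), an acyl-CoA binding protein, FGFBP1 (0.37), KRT7 (0.35) and ARHGDIB (0.29), and those with the lowest were the mitochondrial MT-ND1 (-0.41), PSAP (-0.34), the precursor of the lysosomal saposins, MME (-0.31), MT-CYB (-0.30) and MT-ND3 (-0.29). The mitochondrial share of counts ran with the score at a rho of -0.10, -0.078, -0.27 and -0.39, and its part in these values was not tested.

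**Figure D3:**
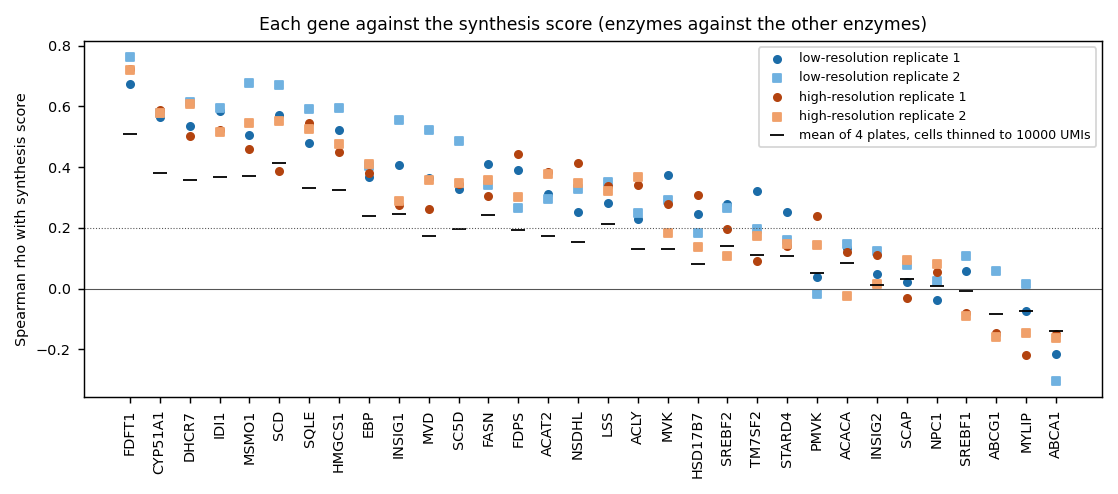
Spearman rho of each of 32 genes with the synthesis score, 1 point per plate, with a black dash for the mean of the 4 plates after thinning and a dotted line at 0.2. Most enzymes, SCD, INSIG1, FASN and ACLY lie above the line in all 4 plates, SREBF1 and NPC1 lie around 0, and ABCA1 lies below 0 in all 4 plates.

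The cells of each plate were ranked by the synthesis score, and sums of counts over its top and its bottom tertile (90 to 97 cells each) gave a test for members that are not in the score. The 17 enzymes of the score are higher in the top tertile by construction and carry no test. Of the 14 other members tested, 6 were higher and none was lower (edgeR quasi-likelihood test with the plate as a block, Benjamini-Hochberg adjusted p below 0.05), against 6.94% of all 10604 genes in either direction and 3.39% higher. The median log2 fold change of the 14 was 0.27, and 0.0038 over all genes. HSD17B7 was at 0.0226, 0.00968, 0.0068 and 0.0309 counts per 10000 in the bottom tertile and at 0.084, 0.0494, 0.0767 and 0.0729 in the top tertile, so the 2 sets did not overlap (log2 fold change 1.91 ± 0.35 (SE), adjusted p = 0.0063, edgeR). These levels rest on 6, 3, 2 and 13 counts in the bottom tertiles, and the share of all genes without such overlap was not counted.

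SCD rose by the most of the fatty acid genes. Its level went from 2.15 to 5.36 and from 1.88 to 6.28 counts per 10000 in the low-resolution plates, and from 2.35 to 3.66 and from 2.18 to 4.27 in the high-resolution plates (1.13 ± 0.14, adjusted p = 0.00054, edgeR). INSIG1 went from 0.636 to 1.67 and from 0.42 to 1.75 in the low-resolution plates, against 0.847 to 1.09 and 0.494 to 0.977 in the high-resolution plates (1.15 ± 0.20, adjusted p = 0.0048, edgeR). For both genes the step was smaller in the high-resolution plates. The difference between the experiments was -1.09 ± 0.21 for INSIG1 and -0.76 ± 0.15 for SCD on the log2 scale (adjusted p = 0.0078 for each, edgeR, where 1.58% of all genes were called), and neither call held with DESeq2 or in thinned cells. Both were also lost without low-resolution replicate 2 (-0.74 and -0.52) and without high-resolution replicate 1 (-0.79 and -0.61).

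STARD4 (0.68 ± 0.13), FASN (0.67 ± 0.08) and ACLY (0.57 ± 0.08) also rose, with adjusted p of 0.010, 0.00053 and 0.0013 (edgeR). SREBF2 at 0.30 ± 0.09 (adjusted p = 0.074), SREBF1 at -0.12 ± 0.14 (0.70) and ACACA, the acetyl-CoA carboxylase that feeds FASN, at 0.24 ± 0.15 (0.40) did not pass the threshold. Median depth was higher in the top tertile than in the bottom tertile of every plate, at 34051 against 25632 counts in low-resolution replicate 1 and 43244 against 27095 in high-resolution replicate 1, and its part in these differences was not tested. Without low-resolution replicate 1, 3 of the 14 members were called. In thinned cells 4 of 12 members outside the score were called, all higher.

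Of the efflux and LXR genes, ABCA1 had fewer counts where the score was high, and the other 2 did not pass the threshold. ABCA1, the pump that loads cholesterol onto apolipoproteins, had 11, 27, 4 and 5 counts in the bottom tertiles of the 4 plates and 0, 1, 0 and 0 in the top tertiles. It had too few counts for the filter. A count of it was found in only 12, 18, 3 and 4 cells of the 4 plates, so the next call rests on few cells. Without that filter it was called lower in the top tertile (adjusted p = 1.5e-08, edgeR, where 6.39% of 18589 genes were called). ABCA1 was also the member with the most negative rho with the score, -0.22, -0.30, -0.15 and -0.16, although a rho of so sparse a gene says little by itself. ABCG1, at -1.13 ± 0.46 (adjusted p = 0.18, edgeR), and MYLIP, at -0.78 ± 0.30 (0.15), did not pass the threshold. MYLIP went from 0.146 to 0.0418 and from 0.0974 to 0.0408 counts per 10000 in the high-resolution plates, and went from 0.169 to 0.101 and from 0.116 to 0.154 in the low-resolution plates.

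The next question was how these genes lie along the epithelial-to-mesenchymal transition (EMT), in which epithelial cells loosen their contacts and gain migratory traits. Each cell had an EMT score, the gene set variation analysis (GSVA) score of a list of mesenchymal genes minus that of a list of epithelial genes, and no member is in either list. The levels of 2 genes of these lists describe its range and are no test of it: CDH1, of cell junctions, went from between 0.906 and 1.28 counts per 10000 in the bottom tertiles to between 0.0215 and 0.0812 in the top tertiles, and VIM, an intermediate filament gene, from between 0.0324 and 0.0737 to between 2.07 and 4.21.

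Over all 4 plates 15 of 31 tested members differed between the top and the bottom tertile of the EMT score, 14 of them lower in the mesenchymal tertile and 1, ACLY, higher. The same test called 41.2% of all 10703 genes, 20.9% lower and 20.3% higher. The median log2 fold change was -0.25 over the members and -0.0014 over all genes. The median mitochondrial share was lower in the mesenchymal tertile of every plate (32.6% to 26.4%, 33.1% to 29%, 33.8% to 27.6% and 31.7% to 25.9%), and its rho with the EMT score was -0.42, -0.30, -0.40 and -0.48. Its part in the differences between EMT tertiles was not tested. With the mitochondrial rows left out 15 members were called, a setting that does not match the tertiles for mitochondrial share. SREBF1 and MYLIP fell the furthest among the better counted members. SREBF1 went from 0.639 to 0.279 and from 0.70 to 0.287 counts per 10000 in the low-resolution plates, and from 0.330 to 0.105 and from 0.378 to 0.183 in the high-resolution plates (log2 fold change -1.35 ± 0.12, adjusted p = 3.8e-06, edgeR). All 4 top tertiles lay below all 4 bottom tertiles, and the share of all genes that separate in this way was not counted. MYLIP went from 0.199 to 0.0628, from 0.219 to 0.0562, from 0.121 to 0.0269 and from 0.127 to 0.0178 (-2.16 ± 0.21, adjusted p = 7.8e-06, edgeR), again without overlap.

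All 4 fatty acid genes were called in both experiments, SCD, FASN and ACACA lower and ACLY higher, where 13.3% of all genes were called lower in both and 12.4% higher in both. SCD went from 3.93 to 2.85, from 4.69 to 2.86, from 3.66 to 2.71 and from 3.92 to 2.85 counts per 10000 (-0.60 ± 0.08, adjusted p = 6.3e-05, edgeR). FASN fell by 0.43 ± 0.07 and ACACA by 0.59 ± 0.15 on the log2 scale (adjusted p = 0.00057 and 0.0072, edgeR). ACLY rose from 0.80 to 1.10, from 0.974 to 1.26, from 1.11 to 1.51 and from 1.19 to 1.59 (0.33 ± 0.08, adjusted p = 0.0042, edgeR), although it followed the synthesis score like the others. ACLY was not called without the plate block or in thinned cells, nor was ACACA in thinned cells.

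The enzymes did not behave alike in the 2 experiments. A fit with a separate effect for each experiment, added after the pooled values were seen, called 20 of 31 members between the EMT tertiles of the low-resolution plates, 19 of them lower (38.7% of all genes were called, 19.3% lower). In the high-resolution plates it called 15, of which 10 were lower and 5 higher (36.8% of all genes were called, 18.8% lower and 17.9% higher). Of the 18 enzymes, 11 fell and none rose in the low-resolution plates, with a median log2 fold change of -0.50. In the high-resolution plates 4 fell and 3 rose, with a median of 0.16. Without high-resolution replicate 2 the count of members called in those plates was 8.

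The difference itself was called for 8 of the 31 members, all in 1 direction, against 3.06% of all 10703 genes and 1.02% in that direction. They are the enzymes HMGCS1, IDI1, FDFT1, MSMO1, SC5D and DHCR7, with INSIG1 and STARD4. IDI1, the isopentenyl diphosphate isomerase, went from 3.01 to 2.02 and from 2.86 to 1.82 counts per 10000 in the low-resolution plates, and from 2.04 to 2.17 and from 1.84 to 2.53 in the high-resolution plates. It fell in both plates of the first kind and was higher in the top tertile of both plates of the second (difference, high minus low, 0.90 ± 0.13 on the log2 scale, adjusted p = 0.00088, edgeR). FDFT1 went from 5.38 to 3.29 and from 5.40 to 3.8, against 5.32 to 5.71 and 4.59 to 4.95 (0.72 ± 0.11, adjusted p = 0.0010, edgeR). HMGCS1, which condenses acetoacetyl-CoA with acetyl-CoA, went from 0.915 to 0.562 and from 0.988 to 0.584, against 0.672 to 0.724 and 0.708 to 0.636 (0.71 ± 0.15, adjusted p = 0.017, edgeR).

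STARD4 showed the largest of these differences, 1.16 ± 0.22 (adjusted p = 0.0075, edgeR). It went from 0.399 to 0.286 and from 0.346 to 0.20 in the low-resolution plates and from 0.202 to 0.285 and from 0.214 to 0.315 in the high-resolution plates. The change in the high-resolution plates was 0.45 ± 0.15 (adjusted p = 0.030, edgeR) but -0.00765 in thinned cells, and it was not called by DESeq2 or without either high-resolution plate. SC5D, the sterol C5 desaturase, differed by 0.76 ± 0.12, MSMO1 by 0.63 ± 0.12, INSIG1 by 0.58 ± 0.15 and DHCR7, the last reductase, by 0.53 ± 0.12 (adjusted p between 0.0022 and 0.041, edgeR). All 18 enzymes had a difference above 0, with a median of 0.53 against -0.0065 over all genes, and 6 of them were called. The enzymes ran together across the same cells, so their signs are not independent of each other. The share of all genes above 0 was not counted. The 4 fatty acid genes had a median of 0.0737, and SREBF1 differed by -0.04 ± 0.23 (adjusted p = 0.96, edgeR). The 8 members were reduced to 4 without low-resolution replicate 1 and to 3 without low-resolution replicate 2, and DESeq2 called 4.

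Cell cycle scores moved with the same groups of cells. The median G2/M score rose from -0.48 to -0.0395 and from -0.56 to 0.20 between the bottom and the top EMT tertile of the high-resolution plates, and from -0.41 to -0.31 and from -0.40 to -0.32 in the low-resolution plates. With only the 466 cells below the median S and G2/M scores of their plate, the difference was above 0 in 7 of the 8 members and none of the 29 tested members was called (5 had an unadjusted p below 0.05), with IDI1 at 0.70 ± 0.20 (adjusted p = 0.17, edgeR), HMGCS1 at 0.18 ± 0.24 (0.91) and INSIG1 at -0.00023 ± 0.26 (1.0). Median depth also differed between the EMT tertiles. It was 33684 counts in the bottom and 27918 in the top tertile of low-resolution replicate 1, and 37387 and 30612 in replicate 2. At high resolution it was 39547 and 39472 in replicate 1, and 38090 and 42357 in replicate 2. In thinned cells the difference between experiments was called for 5 of 29 members and for 74 of 7756 genes. The summed mammary epithelial markers went from 82.1 to 41.4 and from 83.4 to 41.3 counts per 10000 between the bottom and the top EMT tertile at high resolution, and from 41.6 to 43.3 and from 46.6 to 37.4 at low resolution. The immune sum (5 markers, 2 to 4 of them with counts) went from 0.623 to 0.402, from 0.663 to 0.568, from 0.484 to 0.180 and from 0.344 to 0.196 over the 4 plates, and the adipocyte and hepatocyte sum (5 markers, 2 or 3 with counts, ADIPOQ at 0) from 0.0491 to 0.116, from 0.0162 to 0.0905, from 0.0229 to 0.0511 and from 0.0136 to 0.103. The part of these markers and of depth in the differences was not tested. The experiments also differ in the width of the marked zones, and the make-up of the sorted cells by zone cannot be told apart from the experiment.

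**Figure D4:**
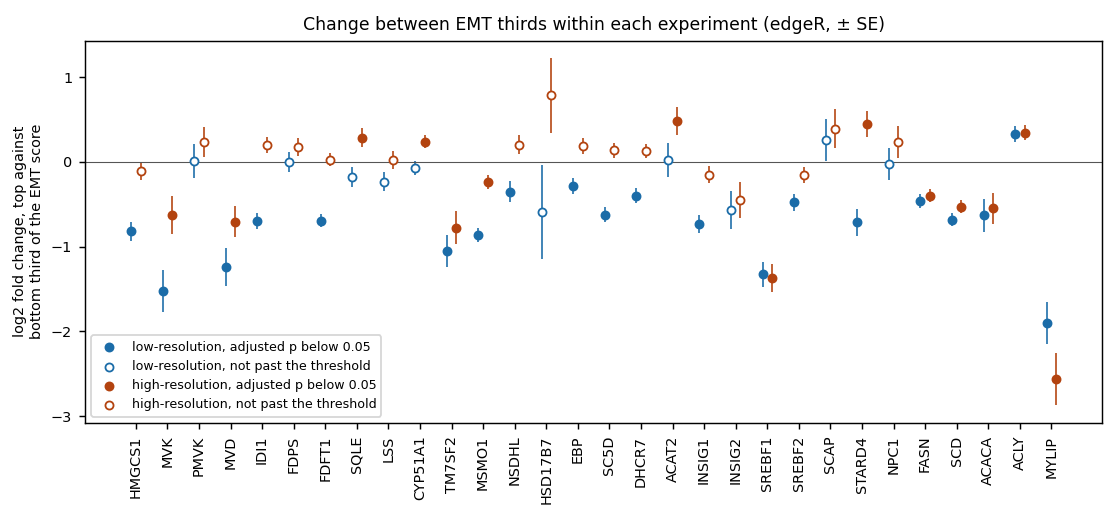
Log2 fold change between the top and the bottom tertile of the EMT score for 30 members, with SE from edgeR, in the low-resolution plates (blue) and the high-resolution plates (orange), filled where the adjusted p was below 0.05. The blue points of the enzymes lie mostly below 0 and the orange ones around or above 0, while SREBF1, FASN, SCD, ACACA, ACLY and MYLIP have both points on the same side; ABCG1 is left out because it had no counts in the top tertiles of the high-resolution plates.

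The score as a whole gave the same contrast. Its rho with the EMT score was -0.26 and -0.28 at low and 0.076 and 0.11 at high resolution. With mitochondrial rows left out these values were -0.315, -0.320, 0.0152 and 0.0438. The epithelial markers CDH1 and EPCAM had rho with the synthesis score of 0.21, 0.32, 0.0159 and 0.0267 and of 0.31, 0.35, 0.0491 and 0.0508, and the mesenchymal gene FN1 had -0.29, -0.39, -0.096 and -0.0416. VIM had -0.0601 and -0.16 at low and 0.20 and 0.19 at high resolution. Among cells with low cycle scores the mean of the 2 plates was -0.22 at low and -0.0163 at high resolution.

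**Figure D5:**
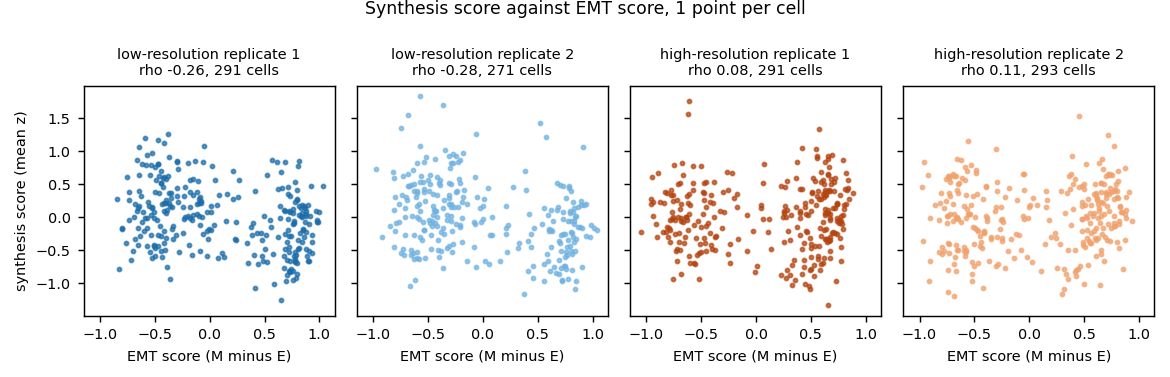
Synthesis score (mean z-score of 17 enzymes) against EMT score (mesenchymal minus epithelial), 1 point per cell and 1 panel per plate. The EMT score was fitted in each experiment separately and the synthesis score in each plate, so positions are relative to those cells. Cells on the mesenchymal side sit lower than those on the epithelial side in both low-resolution panels (rho -0.26 and -0.28) and at a similar height in both high-resolution panels (rho 0.076 and 0.11).

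The 3 efflux and LXR genes split along the EMT score, with the values of ABCA1 again resting on few cells. ABCA1 had 1, 2, 0 and 0 counts in the epithelial tertiles and 12, 24, 2 and 1 in the mesenchymal tertiles, and without the filter on low counts it was called higher (adjusted p = 2.5e-05, edgeR, where 26.9% of 18671 genes were called). ABCG1, a pump that exports sterol to lipoproteins, went from 24 to 16 and from 13 to 2 counts in the low-resolution plates and from 14 and 13 to 0 and 0 in the high-resolution plates, which makes it at least 8.43-fold lower there with a floor of 3 counts over the 2 plates. In the low-resolution plates its log2 fold change was -0.98 ± 0.48 (adjusted p = 0.13, edgeR). MYLIP, which marks lipoprotein receptors for degradation, was lower in the mesenchymal tertile of all 4 plates, as given above.

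Of the 37 other pathway genes, 33 were tested between the EMT tertiles over 4 plates, with 10 higher, 8 lower and a median log2 fold change of 0.083, where 20.3% of all genes were higher and 20.9% lower. The 5 largest rises were those of GPAM, the first acyltransferase of triglyceride synthesis (2.38 ± 0.16), FADS1, the delta-5 fatty acid desaturase (1.65 ± 0.12), SOAT1, which esterifies cholesterol for storage (1.10 ± 0.11), ELOVL5, a fatty acid elongase (0.69 ± 0.17), and MBTPS2, a protease that cuts SREBPs in the Golgi (0.66 ± 0.14). GPAM went from 0.0464 to 0.239, from 0.0378 to 0.259, from 0.0642 to 0.323 and from 0.0546 to 0.310 counts per 10000 (adjusted p = 3.2e-07, edgeR). SOAT1 went from 0.166 to 0.355, from 0.135 to 0.315, from 0.186 to 0.457 and from 0.189 to 0.415 (adjusted p = 1.2e-05, edgeR). For GPAM, FADS1 and SOAT1 all 4 mesenchymal tertiles lay above all 4 epithelial tertiles. The share of all genes that separate in this way was not counted.

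Large falls among these genes were those of GRAMD1C, a sterol carrier between membranes (-3.51 ± 0.49), LPIN1, a phosphatidate phosphatase (-0.95 ± 0.10), ACSS2 (-0.85 ± 0.13) and RXRA, the receptor that pairs with LXRs (-0.71 ± 0.15), with adjusted p between 1.5e-05 and 0.0030 (edgeR). GRAMD1C had 25, 14, 26 and 13 counts in the epithelial tertiles and 2, 2, 0 and 2 in the mesenchymal tertiles. In both experiments taken separately 6 of the 33 were called higher (MBTPS2, ERLIN1, FADS1, GPAM, SOAT1 and NPC2) and 6 lower (among them RNF145, LPIN1, ACSS2, RXRA and GRAMD1C), against 12.4% and 13.3% of all genes. The change differed between the experiments for 2 of the 33 (3.06% of all genes), among them ELOVL5, by -1.0 ± 0.15 (adjusted p = 0.00077, edgeR). ELOVL5 went from 0.601 to 1.60 and from 0.692 to 1.57 in the low-resolution plates, and from 0.780 to 0.864 and from 0.84 to 1.10 in the high-resolution plates.

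Whole plates were compared last, as sums over all kept cells of a plate, with 2 plates per experiment. Such a sum cannot tell fewer cells expressing a gene from less RNA per cell. Of 32 tested members 7 differed, 5 lower and 2 higher in the high-resolution plates, where the test called 12.4% of all 12437 genes and 6.18% lower. SREBF1 was at 0.477 and 0.514 counts per 10000 at low and at 0.210 and 0.267 at high resolution (log2 fold change -1.02 ± 0.15, adjusted p = 0.0013, edgeR), and it was called under each of the 11 alternatives. The 3 efflux and LXR genes were all lower: ABCA1 had 15 and 29 counts against 4 and 5 (-2.54 ± 0.54, adjusted p = 0.011, edgeR), ABCG1 51 and 39 against 15 and 19 (-1.68 ± 0.33, 0.0065), and MYLIP 0.130 and 0.142 counts per 10000 against 0.0691 and 0.0606 (-1.04 ± 0.20, 0.0063). No high-resolution value reached a low-resolution one for any of these 4 genes. With 2 plates per experiment such a separation adds little to the test, and the share of all genes showing it was not counted. ABCA1 was not called without low-resolution replicate 2 (-1.96, adjusted p = 0.098, edgeR).

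Of the 18 enzymes 2 differed between the experiments, a share near the 12.4% of all genes. Their median log2 fold change was 0.092, against -0.019 for all genes. ACAT2, the cytosolic acetoacetyl-CoA thiolase, rose (0.180 and 0.163 against 0.247 and 0.234 counts per 10000, log2 fold change 0.52 ± 0.15, adjusted p = 0.042, edgeR) and TM7SF2 fell (0.281 and 0.299 against 0.208 and 0.185, -0.53 ± 0.15, adjusted p = 0.039). ACLY rose from 0.928 and 1.08 to 1.29 and 1.37 (0.43 ± 0.12, adjusted p = 0.041, edgeR). ACAT2 and TM7SF2 were called in none of the fits that left out 1 plate, and ACLY was called only in the one without low-resolution replicate 2. The plate of the other flow cell is low-resolution replicate 1, without which 4 members were called. SREBF2 was at 1.25 and 1.40 against 1.36 and 1.25 (0.01 ± 0.12, adjusted p = 0.96, edgeR). Of 36 other pathway genes tested 5 were higher (among them TMEM97, GPAM, FADS1 and LIPA, by 0.46 to 0.79 on the log2 scale) and 2 lower (LPIN1 at -0.79 ± 0.11 and RNF145 at -0.60 ± 0.11).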

How the data were processed

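Single MCF10A cells were sorted into 384-well plates and sequenced by SORT-seq, a 3' method with unique molecular identifiers (UMIs), with 2 plates per experiment. The authors deposited estimated counts per gene and well, which are UMI numbers corrected for UMIs seen more than once. Undoing that correction for 4096 UMI sequences gave whole UMIs for all 7245730 values above 0 (tolerance 1e-09), and whole UMIs made up 94.3% of the deposited totals. The submitters' processing notes name STAR 2.7.3a, Seurat 4 and the hg38 build. Rows of spike-in RNA were left out of all sums.

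The study's filter (2000 to 9000 features, mitochondrial share below 40%) was applied, and no doublet caller was run because each well received 1 sorted cell. Counts were scaled to 10000 per cell and log-transformed for rho, the synthesis score and the EMT score. Sums of deposited counts over the cells of a tertile or a plate were rounded and tested with edgeR 4.0.16 (TMM, filterByExpr, quasi-likelihood test, Benjamini-Hochberg adjustment over all genes tested, threshold 0.05), with the plate as a block between tertiles. DESeq2 1.42.0 was an alternative. The others were RLE size factors, no filter on low counts, no block (for plates, a block), each plate left out, no mitochondrial limit, mitochondrial rows left out, cells thinned to 10000 UMIs, cells with low cycle scores, a median split in place of tertiles and a mean z-score in place of GSVA. Effects per experiment were added after the pooled results were seen. In simulated counts with 200 changed genes the edgeR step recovered 78.0% between EMT tertiles, 88.5% between synthesis-score tertiles and 68.5% between plates.

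The paper calls the replicates biological, but nothing in the labels says whether replicate plates are separate cultures on separate days. The p-values between experiments measure the spread between these plates. Those between tertiles measure how the difference within a plate varies over these plates. Counting error alone is covered by any share of cells. The members and the gene lists were chosen with earlier results of these data known. All 33 members are named, with the other pathway genes called between EMT tertiles or plates (at most 5 in each direction) and, of all remaining genes, 5 from each end of the order by mean rho with the synthesis score. 3 genes picked in this way are not reported here, although counts over a list include them. ERLIN1, NPC2 and RNF145 were named after their values were seen, as was ELOVL5 for its difference between experiments.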

Additional observations from a re-analysis of the deposited data

Results flagged for a closer look

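The change between EMT tertiles differed between the experiments by a test of the difference itself (edgeR, adjusted p below 0.05, log2 scale, high minus low resolution) for 8 members. The differences were 1.16 for STARD4, 0.90 for IDI1, 0.76 for SC5D, 0.72 for FDFT1, 0.71 for HMGCS1, 0.63 for MSMO1, 0.58 for INSIG1 and 0.53 for DHCR7. Among the other pathway genes ELOVL5 differed by -1.0. The change between synthesis-score tertiles differed by -1.09 for INSIG1 and by -0.76 for SCD. The rho of the synthesis score with the EMT score was -0.258 and -0.278 at low and 0.0756 and 0.110 at high resolution, with opposite signs in the 2 experiments, and this difference was not tested. With mitochondrial rows left out the high-resolution values were 0.0152 and 0.0438.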

How the results depend on the processing

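With edgeR on all kept cells, 15 members were called between EMT tertiles over 4 plates, and 11 to 19 under the alternatives (11 to 16 with 1 plate left out). In the low-resolution plates 20 were called, 13 with cells of low cycle scores and 15 to 20 with 1 plate left out. In the high-resolution plates 15 were called, against 5 with DESeq2, 6 with no replicate block, 9 in thinned cells, 8 with low cycle scores, 9 with a median split and 8 to 15 with 1 plate left out. The 8 members whose change differed between experiments became 4 with DESeq2, 1 with no replicate block, 5 in thinned cells, 0 with low cycle scores and 3 to 7 with 1 plate left out. Of members outside the synthesis score 6 were called, against 10 without the filter on low counts, 2 with no replicate block and 3 to 8 with 1 plate left out. Between plates 7 were called, 3 with DESeq2, 4 in thinned cells, 4 to 5 with 1 plate left out and 8 with a replicate block. The deviations of plates of the same replicate number correlated at -0.0241. With 2 plates per experiment this value is the same for both pairs by construction. It cannot show whether such plates share more than that number. The mean rho of the enzymes with the score was 0.251 in thinned cells and 0.458 with low cycle scores, against 0.416, and 0.408 to 0.420 with 1 plate left out. The mean rho of the score with EMT was -0.154 to -0.024 with 1 plate left out. The sign turned for STARD4 between EMT tertiles of the high-resolution plates in thinned cells (-0.00765) and, with low cycle scores, for the difference of INSIG1 (-0.00023). Thinned cells hold fewer counts, low-cycle cells are fewer, and cycle scores also differed between EMT tertiles. The part of each in these changes was not tested. Over all genes, 3.06% of those tested were called for a difference between experiments, and the number called lay between 31 (no replicate block, and low-cycle cells) and 650 (median split), with 62 by DESeq2. Between EMT tertiles 4405 of 10703 genes were called, against 3086 with DESeq2, 2966 with no replicate block and 2648 of 7756 in thinned cells. In the low-resolution plates it was 4138, and 1990 of 8463 with low cycle scores. In the high-resolution plates it was 3938, against 1819 with DESeq2, 2832 with no replicate block and 3596 of 11199 with a median split. Thinned cells gave 2021 of 7756 there, and low cycle scores 2333 of 8463. Between synthesis-score tertiles 736 genes were called, against 61 with no replicate block, 350 with DESeq2 and 1242 with no mitochondrial limit. Between plates it was 1547, against 1070 with DESeq2, 2023 with the replicate block and 981 in thinned cells.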
